A study of Homo sapiens with 9 samples.

Results

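The genes described here are 44 genes of mitosis, the stage at which a cell divides its copied chromosomes, followed in A549, an established cell line from a human lung adenocarcinoma. They were taken as a list of cyclins, kinases, checkpoint proteins, kinetochore subunits, kinesins, spindle proteins and their regulators. All 44 were measured, among 19775 genes with a probe set that carried exactly 1 gene, and the brightest probe set by its mean over 9 arrays stood for each gene. The groups were A549 cells transfected with an siRNA against NRF2 (Nrf2 siRNA), cells transfected with a non-targeting siRNA (NS siRNA) and cells given transfection reagent only (mock), with 3 biological replicates each. Both siRNAs were used at 25 nM with Lipofectamine 2000, and RNA was taken 96 h later in every group. NRF2, encoded by NFE2L2, is the transcription factor that switches on antioxidant and detoxifying genes, and A549 cells are known for high NRF2 activity through a mutation of its inhibitor KEAP1. The labels name 1 siRNA treatment against NRF2, and loss of NRF2 and effects of the siRNA on other transcripts cannot be told apart.

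As background, a cell enters mitosis when cyclin A and cyclin B switch on the kinase CDK1, which CDC25 phosphatases release from inhibition. Kinetochores then tie each chromosome to spindle microtubules, and the spindle checkpoint holds back the anaphase-promoting complex until all chromosomes are attached. Most of these genes are transcribed late in the cell cycle, mainly under the MuvB complex with B-MYB and FOXM1, so that their RNA is scarce in cells that do not divide. A bulk RNA sample averages over all of its cells, so fewer cells near mitosis and less RNA per such cell cannot be told apart.

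The deposited values are log2 levels after RMA, a method that corrects, normalises and summarises the probes of an array. Array medians lay between 7.51 and 7.57, and the correlation across probe sets was 0.9979 to 0.9987 within groups and 0.984 to 0.9937 between them. The number of arrays limits the precision, with a median standard deviation of 0.0583 between the replicates of a gene. NFE2L2 itself read 10.12, 10.32 and 10.30 in Nrf2 siRNA cells, against 12.09, 12.03 and 12.15 in NS siRNA cells and 12.07, 11.92 and 11.98 in mock cells. All 3 Nrf2 siRNA arrays lay far below the controls, at 27.9% of the NS siRNA level (adjusted p = 1.92e-10, limma) and 30.0% of the mock level (adjusted p = 6.07e-10). Every mitosis gene was brighter than the median of all probe sets, 7.54, and the 3 markers of cycling cells, CCNA2, CCNB1 and CDC20, were bright in all 9 arrays. The mean level of 5 epithelial markers (KRT8, KRT18, KRT19, EPCAM and CDH1) ran at 12.28 to 12.43 in Nrf2 siRNA, 11.91 to 11.94 in NS siRNA and 11.46 to 11.52 in mock arrays. Markers of fibroblasts (6 genes) averaged 8.63 to 8.71, 8.12 to 8.16 and 8.34 to 8.46 in Nrf2 siRNA, NS siRNA and mock arrays, those of immune cells (4 of 6 measured) 7.90 to 7.98, 7.77 to 7.84 and 7.64 to 7.75, and those of endothelial cells (4 genes) 6.90 to 7.04, 6.95 to 7.0 and 6.88 to 6.96. Against NS siRNA 3 epithelial, 3 fibroblast, 1 immune and 1 endothelial marker rose and 1 immune marker fell, and 1 fibroblast, 2 immune and 2 endothelial markers were dimmer than the array median. The part of these marker levels in the results below was not tested.

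Mitosis genes were mostly lower after Nrf2 siRNA, by small amounts, while CDC25B and, by less, ECT2 were higher against both controls. Against NS siRNA, 28 of 44 genes (63.6%) fell past the threshold, where 26.6% of all genes did, and 5 (11.4%) rose, where 21.0% of all genes did. Against mock, 22 of 44 (50%) fell, where 16.7% of all genes did, and 2 (4.55%) rose, where 16.4% of all genes did. Counted in either direction, 33 of 44 (75.0%) passed the threshold against NS siRNA, where 47.6% of all genes did, and 24 of 44 against mock, where 33.0% of all genes did. The threshold was an adjusted p of 0.05 in limma over all 19775 genes. Among the 13139 genes above the median level, which hold all 44, 33.7% fell and 29.7% rose against NS siRNA, and 24.8% fell and 23.8% rose against mock in a fit of those genes alone. In that fit the mitosis genes gave 29 falls and 5 rises against NS siRNA, and 25 falls and 2 rises against mock. In the fit of all genes, the 5 rises against NS siRNA were 3 without NS siRNA replicate 2 or 3, and 3 without Nrf2 siRNA replicate 2 or 3.

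The sizes were modest. The median log2 difference of the 44 genes was -0.19 against NS siRNA and -0.15 against mock, while the medians of all genes were -0.05 and -0.02 in those comparisons. Of the 44, 35 lay below 0 against NS siRNA (62.6% of all genes did) and 41 against mock (56.6% of all genes did). Only SPC25, CCNA2, CDC25B and CDC20 were called with a change of 1.5-fold or more against NS siRNA, which is 9.09% of the list beside 9.55% of all genes. Against mock the largest was CCNA2 at 1.48-fold, and 4.87% of all genes were called at 1.5-fold or more. For 23 of 44 genes (52.3%) all 3 Nrf2 siRNA arrays lay below all 6 control arrays, where 17.0% of all genes did so. CDC25B and ECT2 lay above all 6, where 14.9% of all genes did so, and the other 19 overlapped the controls. Both comparisons share the Nrf2 siRNA arrays and are not independent of each other.

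**Figure D1:**
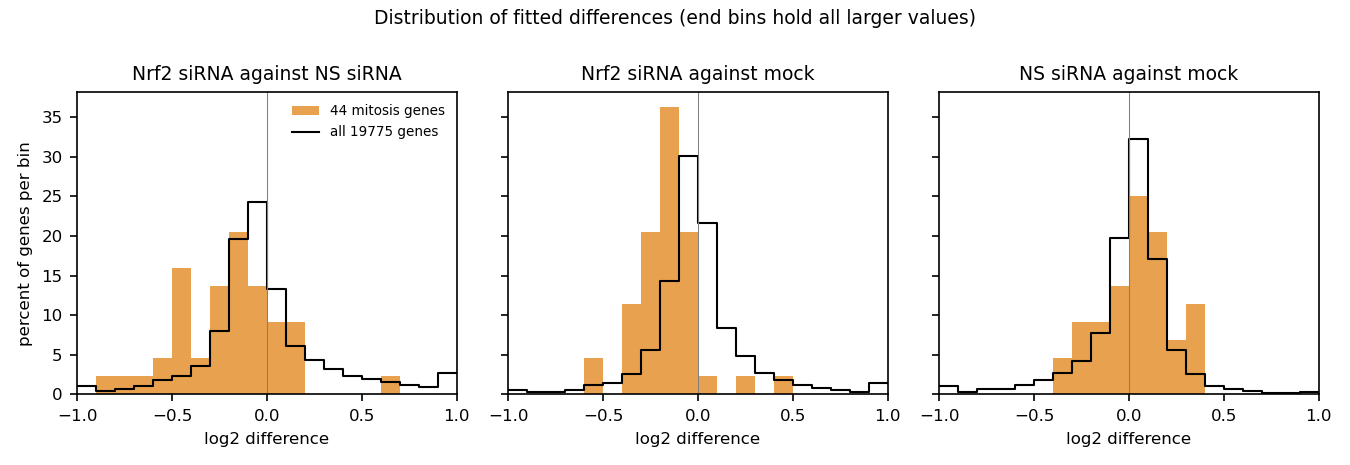
Share of genes in each bin of the log2 difference, for the 44 mitosis genes and all 19775 genes, in the 3 comparisons. Of the 44 mitosis genes 35 lie below 0 against NS siRNA (median -0.19) and 41 against mock (median -0.15), while 16 do for NS siRNA against mock (median 0.04).

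The promoters of 6 genes that fell are shown because mitosis genes are known for the cell cycle elements that capitals mark in them. RefSeq promoters (GRCh38.p14) were matched for 37 of the 44 genes. Capitals mark the letters TTTGAA, a core of the cell cycle genes homology region that the MuvB complex binds, and CCAAT, which the factor NF-Y binds, each on either strand. The 250 bases before the start are given 5′ to 3′ in the direction of the gene: CCNA2 (chr4:121823884-121824133, minus strand), CCNB1 (chr5:69166900-69167149, plus strand), CDC20 (chr1:43358731-43358980, plus strand), SPC25 (chr2:168890431-168890680, minus strand), ZWINT (chr10:56361260-56361509, minus strand) and BUB1B (chr15:40160819-40161068, plus strand).
CCNA2: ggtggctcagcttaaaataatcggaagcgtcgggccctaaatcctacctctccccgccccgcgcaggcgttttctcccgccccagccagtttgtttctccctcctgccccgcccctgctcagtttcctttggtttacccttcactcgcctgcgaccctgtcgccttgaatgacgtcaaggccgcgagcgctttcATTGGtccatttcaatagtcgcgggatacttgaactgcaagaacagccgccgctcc
CCNB1: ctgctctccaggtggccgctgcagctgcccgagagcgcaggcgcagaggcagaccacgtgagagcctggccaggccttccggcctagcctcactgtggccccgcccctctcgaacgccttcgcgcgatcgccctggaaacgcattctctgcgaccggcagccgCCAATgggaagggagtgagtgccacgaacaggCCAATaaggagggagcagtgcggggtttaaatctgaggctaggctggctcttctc
CDC20: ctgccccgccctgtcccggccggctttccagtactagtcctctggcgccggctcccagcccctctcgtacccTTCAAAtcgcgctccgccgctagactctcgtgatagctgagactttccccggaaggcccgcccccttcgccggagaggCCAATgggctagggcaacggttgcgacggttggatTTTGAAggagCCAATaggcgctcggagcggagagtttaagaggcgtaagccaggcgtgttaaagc
SPC25: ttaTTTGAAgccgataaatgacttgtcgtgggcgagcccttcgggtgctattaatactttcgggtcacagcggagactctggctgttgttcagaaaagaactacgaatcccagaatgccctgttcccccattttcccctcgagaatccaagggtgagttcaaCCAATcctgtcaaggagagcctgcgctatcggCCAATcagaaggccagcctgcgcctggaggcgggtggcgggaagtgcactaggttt
ZWINT: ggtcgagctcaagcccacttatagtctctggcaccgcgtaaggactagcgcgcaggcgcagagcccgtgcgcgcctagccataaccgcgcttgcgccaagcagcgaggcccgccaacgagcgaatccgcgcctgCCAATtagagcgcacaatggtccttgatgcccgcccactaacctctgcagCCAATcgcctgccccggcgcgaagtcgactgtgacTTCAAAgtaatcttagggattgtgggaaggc
BUB1B: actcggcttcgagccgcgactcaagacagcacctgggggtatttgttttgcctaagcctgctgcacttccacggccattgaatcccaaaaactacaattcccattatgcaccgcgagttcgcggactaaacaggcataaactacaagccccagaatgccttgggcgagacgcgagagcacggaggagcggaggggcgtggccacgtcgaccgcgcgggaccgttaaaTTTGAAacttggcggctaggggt
ZWINT holds a match that begins 31 bases before its start and BUB1B one that begins 23 bases before it. CDC20 has matches 178 and 65 bases before its start, and SPC25 has one at 247 bases and another that straddles the start and is not in capitals. CCNA2 and CCNB1 hold CCAAT and no match to TTTGAA or TTCGAA in this window, which says only that these letters are not there.

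In the window from 250 bases before to 50 after the start, TTTGAA or TTCGAA on either strand was found in 27 of the 37 promoters (73.0%), against 16.6% of all 27305 promoters. CCAAT on either strand was in 29 of 37 (78.4%), against 35.7% of all. The letters TGACNNNGC, a core of the antioxidant response element that NRF2 binds, were in 8 of 37 (21.6%), against 13.6% of all. A match to TTTGAA or TTCGAA that begins within 40 bases before the start was in 16 of 37 (43.2%), against 2.23% of all, in a window chosen after the matches had been seen. PLK1, which rose against NS siRNA, and CCNB2, which fell on its brightest probe set, both hold such a match 29 bases before the start. Against mock both fell on their brightest probe sets. AURKA, BIRC5, BUB3, TTK, TPX2, UBE2C and FOXM1 had no entry in the promoter table.

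The counts by role that follow stand beside shares over all genes of 26.6% lower and 21.0% higher against NS siRNA, and 16.7% lower and 16.4% higher against mock, and with 2 to 8 genes a role they are descriptions. Of the 8 genes of mitotic entry, 4 fell and 3 rose against NS siRNA, and 5 fell and 1 rose against mock. The cyclins fell. CCNA2, cyclin A, which partners CDK2 and CDK1 up to early mitosis, read 10.45, 10.42 and 10.38 in Nrf2 siRNA cells, against 11.15, 11.24 and 11.04 in NS siRNA cells and 11.00, 11.09 and 10.86 in mock cells. All 3 Nrf2 siRNA arrays were lower than every control array, while NS siRNA and mock arrays overlapped. CCNA2 was 1.66-fold lower than in NS siRNA (log2 difference -0.73 ± 0.06, SE, adjusted p = 1.04e-06) and 1.48-fold lower than in mock (-0.57 ± 0.06, adjusted p = 1.85e-05). CCNB1, cyclin B1, the main partner of CDK1, read 12.15, 12.28 and 12.16 in Nrf2 siRNA cells, against 12.76, 12.82 and 12.70 in NS siRNA cells and 12.46, 12.47 and 12.44 in mock cells. On this brightest probe set the groups did not overlap, with Nrf2 siRNA lowest, mock between and NS siRNA highest. The difference was -0.56 ± 0.05 against NS siRNA (adjusted p = 1.06e-06) and -0.26 ± 0.05 against mock (adjusted p = 0.00135), and NS siRNA stood above mock (0.30 ± 0.05, adjusted p = 0.000465). The other CCNB1 probe set gave the opposite sign against mock, as given further on.

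CCNB2, cyclin B2, was lower in all 3 Nrf2 siRNA arrays than in all 6 controls, with differences of -0.16 ± 0.05 against NS siRNA (adjusted p = 0.0119) and -0.23 ± 0.05 against mock (adjusted p = 0.0016). That holds for its brightest probe set, and its dimmer ones ran the other way, as given further on. CDK1, the kinase that drives entry, fell against NS siRNA (-0.14 ± 0.04, adjusted p = 0.0215) and was at -0.02 ± 0.04 against mock (adjusted p = 0.797), with Nrf2 siRNA and mock arrays overlapping. The call for CDK1 was lost without NS siRNA replicate 2 (-0.13, adjusted p = 0.0691) or on leaving out Nrf2 siRNA replicate 3 (-0.11, adjusted p = 0.082), and also with the mean of its probe sets (-0.10, adjusted p = 0.0783) or the one of largest interquartile range (-0.02, adjusted p = 0.909). CDC25C, a phosphatase that activates CDK1, passed the threshold in neither comparison (adjusted p = 0.978 against NS siRNA and 0.941 against mock).

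CDC25B, the phosphatase that starts CDK1 activation at the end of G2, moved the other way. It read 12.88, 12.98 and 13.01 in Nrf2 siRNA cells, against 12.29, 12.26 and 12.27 in NS siRNA cells and 12.48, 12.60 and 12.31 in mock cells. All 3 Nrf2 siRNA arrays were above all 6 controls, and the NS siRNA arrays were the lowest. CDC25B rose 1.6-fold against NS siRNA (log2 difference 0.68 ± 0.07, SE, adjusted p = 2.35e-06) and 1.41-fold against mock (0.49 ± 0.07, adjusted p = 7.72e-05). PLK1, polo-like kinase 1, which promotes entry, centrosome maturation and cytokinesis, read 10.79, 10.77 and 10.77 in Nrf2 siRNA cells, against 10.61, 10.59 and 10.61 in NS siRNA cells and 11.02, 10.94 and 10.97 in mock cells. Its Nrf2 siRNA arrays lay between the groups, above every NS siRNA and below every mock array, so that it rose against NS siRNA (0.18 ± 0.04, adjusted p = 0.0035) and fell against mock (-0.20 ± 0.04, adjusted p = 0.0024). AURKA, the kinase of spindle poles and centrosomes, read 11.68, 11.72 and 11.55 in Nrf2 siRNA cells, against 11.47, 11.47 and 11.48 in NS siRNA cells and 11.86, 11.83 and 11.82 in mock cells. It took the same middle place, higher than NS siRNA (0.17 ± 0.05, adjusted p = 0.0113) and lower than mock (-0.19 ± 0.05, adjusted p = 0.00909). For both kinases, on these probe sets, the sign of the change depended on which control was used. The rise of AURKA rests on its brightest probe set, since another bright one gave 0.06 (adjusted p = 0.347) and a dim one 0.20 (adjusted p = 0.142) against NS siRNA.

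**Figure D2:**
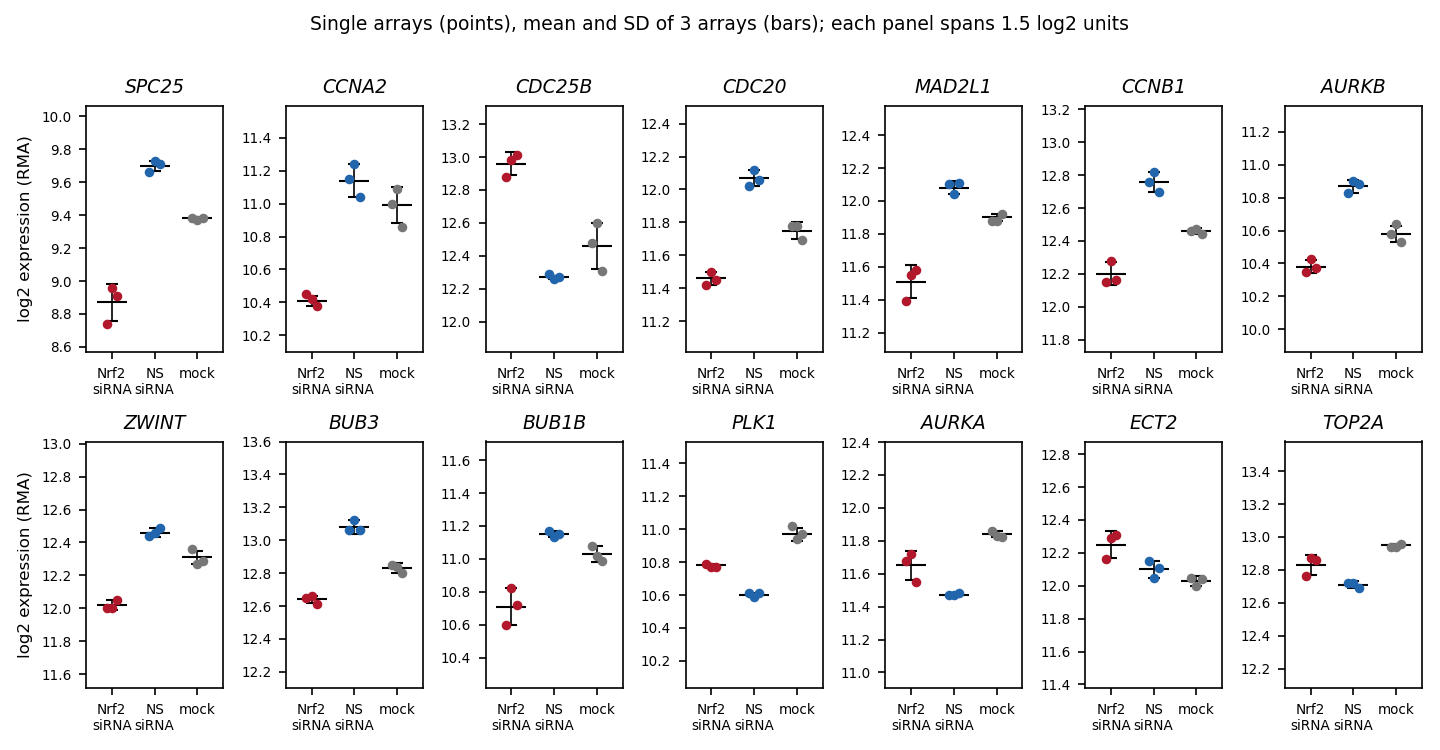
Log2 expression level (vertical axis) on each array for selected mitosis genes, with Nrf2 siRNA, NS siRNA and mock from left to right, points for the 3 arrays of a group and bars for their mean and SD. SPC25, CCNA2 and CDC20 sit lowest in Nrf2 siRNA, CDC25B sits highest there, and PLK1 and AURKA lie between NS siRNA and mock.

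The chromosomal passenger complex corrects faulty attachments of chromosomes to the spindle. Of its 4 subunits 3 fell against NS siRNA and 2 against mock. AURKB, its kinase, read 10.35, 10.43 and 10.37 in Nrf2 siRNA cells, against 10.83, 10.90 and 10.88 in NS siRNA cells and 10.58, 10.64 and 10.53 in mock cells. The 3 groups did not overlap, with Nrf2 siRNA lowest and NS siRNA highest. AURKB was 1.41-fold lower than in NS siRNA (-0.49 ± 0.05, adjusted p = 1.91e-06) and 1.15-fold lower than in mock (-0.20 ± 0.05, adjusted p = 0.00445). CDCA8, borealin, fell against both controls (-0.21 ± 0.04, adjusted p = 0.00147 against NS siRNA and -0.18 ± 0.04, adjusted p = 0.00605 against mock). INCENP, the scaffold that activates AURKB, fell against NS siRNA (-0.20 ± 0.06, adjusted p = 0.014) and missed the threshold against mock (-0.15 ± 0.06, adjusted p = 0.0713). The call for INCENP was lost without NS siRNA replicate 1 (-0.15, adjusted p = 0.0626) or on leaving out Nrf2 siRNA replicate 1 (-0.15, adjusted p = 0.0586). BIRC5, survivin, had differences of -0.01 ± 0.09 against NS siRNA (adjusted p = 0.966) and 0.04 ± 0.09 against mock (adjusted p = 0.757), with overlapping groups.

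The spindle checkpoint had 5 of 6 genes lower against NS siRNA and 4 of 6 against mock, at medians of -0.44 and -0.24. MAD2L1, MAD2, which binds and blocks CDC20, read 11.39, 11.55 and 11.58 in Nrf2 siRNA cells, against 12.10, 12.04 and 12.11 in NS siRNA cells and 11.88, 11.88 and 11.92 in mock cells. Each group stood apart, with Nrf2 siRNA below mock and mock below NS siRNA. MAD2L1 was 1.49-fold lower than in NS siRNA (-0.57 ± 0.05, adjusted p = 1.81e-06) and 1.31-fold lower than in mock (-0.39 ± 0.05, adjusted p = 0.000108). BUB1B, BUBR1, another inhibitor of CDC20, read 10.60, 10.82 and 10.72 in Nrf2 siRNA cells, against 11.17, 11.13 and 11.15 in NS siRNA cells and 11.08, 11.02 and 10.99 in mock cells. Its Nrf2 siRNA arrays were below all controls, with a fall of 1.35-fold against NS siRNA (-0.44 ± 0.06, adjusted p = 2.91e-05) and 1.25-fold against mock (-0.32 ± 0.06, adjusted p = 0.000683). ZWINT, which joins checkpoint proteins to the kinetochore, read 12.00, 12.00 and 12.05 in Nrf2 siRNA cells, against 12.44, 12.46 and 12.49 in NS siRNA cells and 12.36, 12.27 and 12.29 in mock cells. It too was below all 6 controls and fell against NS siRNA (-0.45 ± 0.04, adjusted p = 2.24e-06) and mock (-0.29 ± 0.04, adjusted p = 0.000189).

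BUB3, the partner of BUB1 and BUBR1, read 12.65, 12.66 and 12.61 in Nrf2 siRNA cells, against 13.06, 13.12 and 13.06 in NS siRNA cells and 12.85, 12.84 and 12.80 in mock cells. No Nrf2 siRNA array reached a control array, and BUB3 fell against NS siRNA (-0.44 ± 0.04, adjusted p = 2.05e-06) and mock (-0.19 ± 0.04, adjusted p = 0.00332). This holds for its brightest probe set, of a kind that can also bind related transcripts, and other BUB3 probe sets differed in sign, as given further on. The probe sets that stand for CENPA, PTTG1 and FOXM1, and for CENPH and LIN9 named further on, are of the same kind. BUB1, a checkpoint kinase, fell against NS siRNA (-0.18 ± 0.05, adjusted p = 0.0109) and missed the threshold against mock (-0.12 ± 0.05, adjusted p = 0.0949). With the BUB1 probe set of largest interquartile range the difference against NS siRNA was -0.08 and the call was lost (adjusted p = 0.337). The next brightest BUB1 probe set gave -0.16 (adjusted p = 0.0209) against NS siRNA and -0.24 (adjusted p = 0.00275) against mock. The dimmer ones were called in neither comparison. TTK, the MPS1 kinase that starts checkpoint signalling, was called in neither comparison (-0.08 ± 0.06, adjusted p = 0.276 against NS siRNA and -0.13 ± 0.06, adjusted p = 0.102 against mock). With quantile normalization TTK was called lower against NS siRNA (-0.14, adjusted p = 0.0397) and mock (-0.15, adjusted p = 0.0403). Without Nrf2 siRNA replicate 2 it was called lower against mock (-0.17, adjusted p = 0.046).

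Among 7 kinetochore and centromere genes 4 fell against NS siRNA and 4 against mock. The 4 that fell against NS siRNA were the subunits of the NDC80 complex, the clamp that holds the microtubule. SPC25 read 8.74, 8.96 and 8.91 in Nrf2 siRNA cells, against 9.66, 9.73 and 9.71 in NS siRNA cells and 9.38, 9.37 and 9.38 in mock cells. Nrf2 siRNA arrays were lowest without overlap, mock arrays were nearly identical to one another, and NS siRNA arrays were highest. SPC25 was 1.78-fold lower than in NS siRNA (-0.83 ± 0.06, adjusted p = 7.51e-08) and 1.43-fold lower than in mock (-0.51 ± 0.06, adjusted p = 1.2e-05), the largest absolute log2 difference of the 44 genes against NS siRNA. NDC80 fell against NS siRNA (-0.43 ± 0.08, adjusted p = 0.000482) and against mock (-0.24 ± 0.08, adjusted p = 0.0283). Its call against mock was lost without mock replicate 1 (-0.25, adjusted p = 0.0531), on leaving out mock replicate 2 (-0.20, adjusted p = 0.106), on leaving out Nrf2 siRNA replicate 1 (-0.20, adjusted p = 0.105) or on leaving out Nrf2 siRNA replicate 3 (-0.21, adjusted p = 0.0995). SPC24 fell by similar amounts against NS siRNA (-0.38 ± 0.07, adjusted p = 0.000428) and mock (-0.37 ± 0.07, adjusted p = 0.000858), while its other probe set gave -0.07 (adjusted p = 0.424) against NS siRNA. NUF2 fell against NS siRNA (-0.41 ± 0.05, adjusted p = 3.67e-05) and missed the threshold against mock (-0.12 ± 0.05, adjusted p = 0.121), though its 3 Nrf2 siRNA arrays lay below all 6 controls.

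The centromere proteins behaved otherwise. CENPA, the histone H3 variant that marks centromeres, had 0.06 ± 0.05 against NS siRNA (adjusted p = 0.279) and fell against mock (-0.14 ± 0.05, adjusted p = 0.03), a call lost without mock replicate 1 (-0.15, adjusted p = 0.0614), on leaving out mock replicate 2 (-0.11, adjusted p = 0.111), on leaving out Nrf2 siRNA replicate 1 (-0.14, adjusted p = 0.069) or on leaving out Nrf2 siRNA replicate 3 (-0.13, adjusted p = 0.0934). CENPE, a kinetochore kinesin, and CENPF, a kinetochore protein of the outer plate, were called in neither comparison, with differences of 0.10 and -0.08 against NS siRNA and -0.05 and -0.05 against mock. CENPE arrays overlapped those of both controls, and the Nrf2 siRNA arrays of CENPF lay below NS siRNA and overlapped mock. Other CENPF probe sets differed in sign against NS siRNA, at 0.16 (adjusted p = 0.07) and, on a dim one, -0.27 (adjusted p = 0.00869).

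Of 5 mitotic kinesins 4 fell against NS siRNA and 2 against mock. KIF23, MKLP1, which builds the central spindle, read 10.72, 10.87 and 10.87 in Nrf2 siRNA cells, against 11.21, 11.14 and 11.16 in NS siRNA cells and 10.86, 10.81 and 10.91 in mock cells. Nrf2 siRNA and mock arrays overlapped and NS siRNA arrays stood above both, so that KIF23 fell against NS siRNA (-0.35 ± 0.05, adjusted p = 0.00011) and was at -0.04 ± 0.05 against mock (adjusted p = 0.608). KIF2C, MCAK, which takes microtubules apart at kinetochores, gave the same picture (-0.20 ± 0.04, adjusted p = 0.00225 against NS siRNA and -0.01 ± 0.04, adjusted p = 0.848 against mock). For KIF23 the picture depended on the probe set. Its other probe set, dimmer than the median of all probe sets, fell against NS siRNA (-0.29, adjusted p = 0.017) and mock (-0.31, adjusted p = 0.0156). With the mean of its probe sets KIF23 was also called lower against mock (-0.18, adjusted p = 0.0471). KIF4A, a chromosome-bound kinesin, fell against NS siRNA (-0.25 ± 0.05, adjusted p = 0.0022) and mock (-0.21 ± 0.05, adjusted p = 0.00846). KIF20A, MKLP2, which moves the passenger complex to the midzone, also fell against NS siRNA (-0.18 ± 0.06, adjusted p = 0.0206) and mock (-0.28 ± 0.06, adjusted p = 0.00265). The call for KIF20A against NS siRNA was lost without NS siRNA replicate 2 (-0.17, adjusted p = 0.0634) or on leaving out Nrf2 siRNA replicate 1 (-0.12, adjusted p = 0.077). KIF11, Eg5, which pushes the spindle poles apart, missed the threshold against NS siRNA (0.09 ± 0.05, adjusted p = 0.139) and against mock (-0.12 ± 0.05, adjusted p = 0.0796), and passed it against NS siRNA without Nrf2 siRNA replicate 1 (0.13, adjusted p = 0.0484).

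Of 5 spindle proteins 3 fell against NS siRNA and 1 against mock. TPX2, which activates AURKA on the spindle, fell against NS siRNA (-0.24 ± 0.05, adjusted p = 0.000719), with -0.09 ± 0.05 against mock (adjusted p = 0.144). HMMR, which keeps spindle poles in shape, likewise fell against NS siRNA (-0.20 ± 0.04, adjusted p = 0.00253), with -0.10 ± 0.04 against mock (adjusted p = 0.096). For TPX2 and HMMR the 3 Nrf2 siRNA arrays still lay below all 6 controls. NUSAP1, which bundles spindle microtubules, fell against NS siRNA (-0.16 ± 0.04, adjusted p = 0.0112) and mock (-0.16 ± 0.04, adjusted p = 0.0142). The NUSAP1 call was lost against NS siRNA without NS siRNA replicate 2 (-0.13, adjusted p = 0.0519) and against mock without Nrf2 siRNA replicate 1 (-0.14, adjusted p = 0.0535). PRC1, which bundles the central spindle, and DLGAP5, which stabilises spindle fibres, were called in neither comparison.

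The cytokinesis genes went opposite ways. ECT2, the exchange factor that activates RhoA at the cleavage furrow, read 12.16, 12.29 and 12.31 in Nrf2 siRNA cells, against 12.15, 12.05 and 12.11 in NS siRNA cells and 12.05, 12.00 and 12.04 in mock cells. All Nrf2 siRNA arrays lay above all 6 controls, the lowest by little, and ECT2 rose against NS siRNA (0.15 ± 0.05, adjusted p = 0.0294) and mock (0.22 ± 0.05, adjusted p = 0.00465). Its call against NS siRNA was lost without NS siRNA replicate 2 (0.12, adjusted p = 0.109), on leaving out NS siRNA replicate 3 (0.16, adjusted p = 0.0572), on leaving out Nrf2 siRNA replicate 2 (0.13, adjusted p = 0.0894) or on leaving out Nrf2 siRNA replicate 3 (0.12, adjusted p = 0.106). ANLN, anillin, which scaffolds the contractile ring, fell against NS siRNA (-0.26 ± 0.06, adjusted p = 0.00266) and overlapped mock (-0.12 ± 0.06, adjusted p = 0.144).

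The 4 genes of anaphase act with the anaphase-promoting complex or downstream of it, and 3 fell against each control. CDC20, the activator of the complex and the target of the checkpoint, read 11.42, 11.50 and 11.45 in Nrf2 siRNA cells, against 12.02, 12.12 and 12.06 in NS siRNA cells and 11.78, 11.78 and 11.69 in mock cells. The groups did not overlap, with Nrf2 siRNA lowest and NS siRNA highest. CDC20 was 1.52-fold lower than in NS siRNA (-0.61 ± 0.05, adjusted p = 3.17e-07) and 1.22-fold lower than in mock (-0.29 ± 0.05, adjusted p = 0.000359). UBE2C, the ubiquitin-conjugating enzyme of the complex, read 12.12, 12.23 and 12.10 in Nrf2 siRNA cells, against 12.62, 12.63 and 12.59 in NS siRNA cells and 12.31, 12.26 and 12.17 in mock cells. Its Nrf2 siRNA arrays overlapped mock, so that it fell against NS siRNA (-0.46 ± 0.05, adjusted p = 8.11e-06) and was at -0.10 ± 0.05 against mock (adjusted p = 0.183). PTTG1, securin, the inhibitor that the complex destroys, fell against NS siRNA (-0.24 ± 0.05, adjusted p = 0.00125) and mock (-0.22 ± 0.05, adjusted p = 0.0031). PTTG1 has near-identical relatives in the genome, and its probe set may read them too. ESPL1, separase, the protease that cuts cohesin, missed the threshold against NS siRNA (-0.16 ± 0.06, adjusted p = 0.0624) and fell against mock (-0.32 ± 0.06, adjusted p = 0.00168). It passed the threshold against NS siRNA without Nrf2 siRNA replicate 3 (-0.22, adjusted p = 0.0145). The same held on its other probe set (-0.22, adjusted p = 0.0162) and in some other settings, such as quantile normalization (-0.22, adjusted p = 0.0106).

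TOP2A, MKI67 and FOXM1 are markers or regulators of proliferation rather than parts of the spindle. TOP2A, the topoisomerase that untangles chromosomes, read 12.76, 12.87 and 12.86 in Nrf2 siRNA cells, against 12.72, 12.72 and 12.69 in NS siRNA cells and 12.94, 12.94 and 12.96 in mock cells. It lay between the controls, above NS siRNA (0.12 ± 0.04, adjusted p = 0.0391) and below mock without passing the threshold (-0.12 ± 0.04, adjusted p = 0.0603). Its call against NS siRNA was lost in 7 of the 9 fits that leave out 1 array, with adjusted p between 0.0507 and 0.113, and remained without mock replicate 2 and without Nrf2 siRNA replicate 1. MKI67, the Ki-67 proliferation marker, read 11.42, 11.49 and 11.49 in Nrf2 siRNA cells, against 11.35, 11.39 and 11.41 in NS siRNA cells and 11.62, 11.68 and 11.47 in mock cells. It was called in neither comparison (0.08 ± 0.06, adjusted p = 0.249 against NS siRNA and -0.12 ± 0.06, adjusted p = 0.114 against mock). Its Nrf2 siRNA arrays stood above all NS siRNA arrays and overlapped mock. A fall of MKI67 against mock was called without mock replicate 3 (-0.18, adjusted p = 0.0165). It was also called with the mean of its probe sets (-0.15, adjusted p = 0.0453) and with the one of largest interquartile range (-0.21, adjusted p = 0.0133). Other MKI67 probe sets gave -0.10 and -0.16 against mock without passing the threshold. FOXM1, the factor that drives many genes of this list, read 10.84, 10.93 and 10.87 in Nrf2 siRNA cells, against 11.03, 11.08 and 11.04 in NS siRNA cells and 11.16, 11.31 and 11.08 in mock cells. All Nrf2 siRNA arrays were below all controls, and FOXM1 fell against NS siRNA (-0.17 ± 0.06, adjusted p = 0.0265) and mock (-0.31 ± 0.06, adjusted p = 0.00107). The FOXM1 call against NS siRNA was lost without NS siRNA replicate 2 (-0.16, adjusted p = 0.0826), on leaving out NS siRNA replicate 3 (-0.18, adjusted p = 0.0554), on leaving out Nrf2 siRNA replicate 1 (-0.15, adjusted p = 0.0777) or on leaving out Nrf2 siRNA replicate 3 (-0.17, adjusted p = 0.0673).

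**Figure D3:**
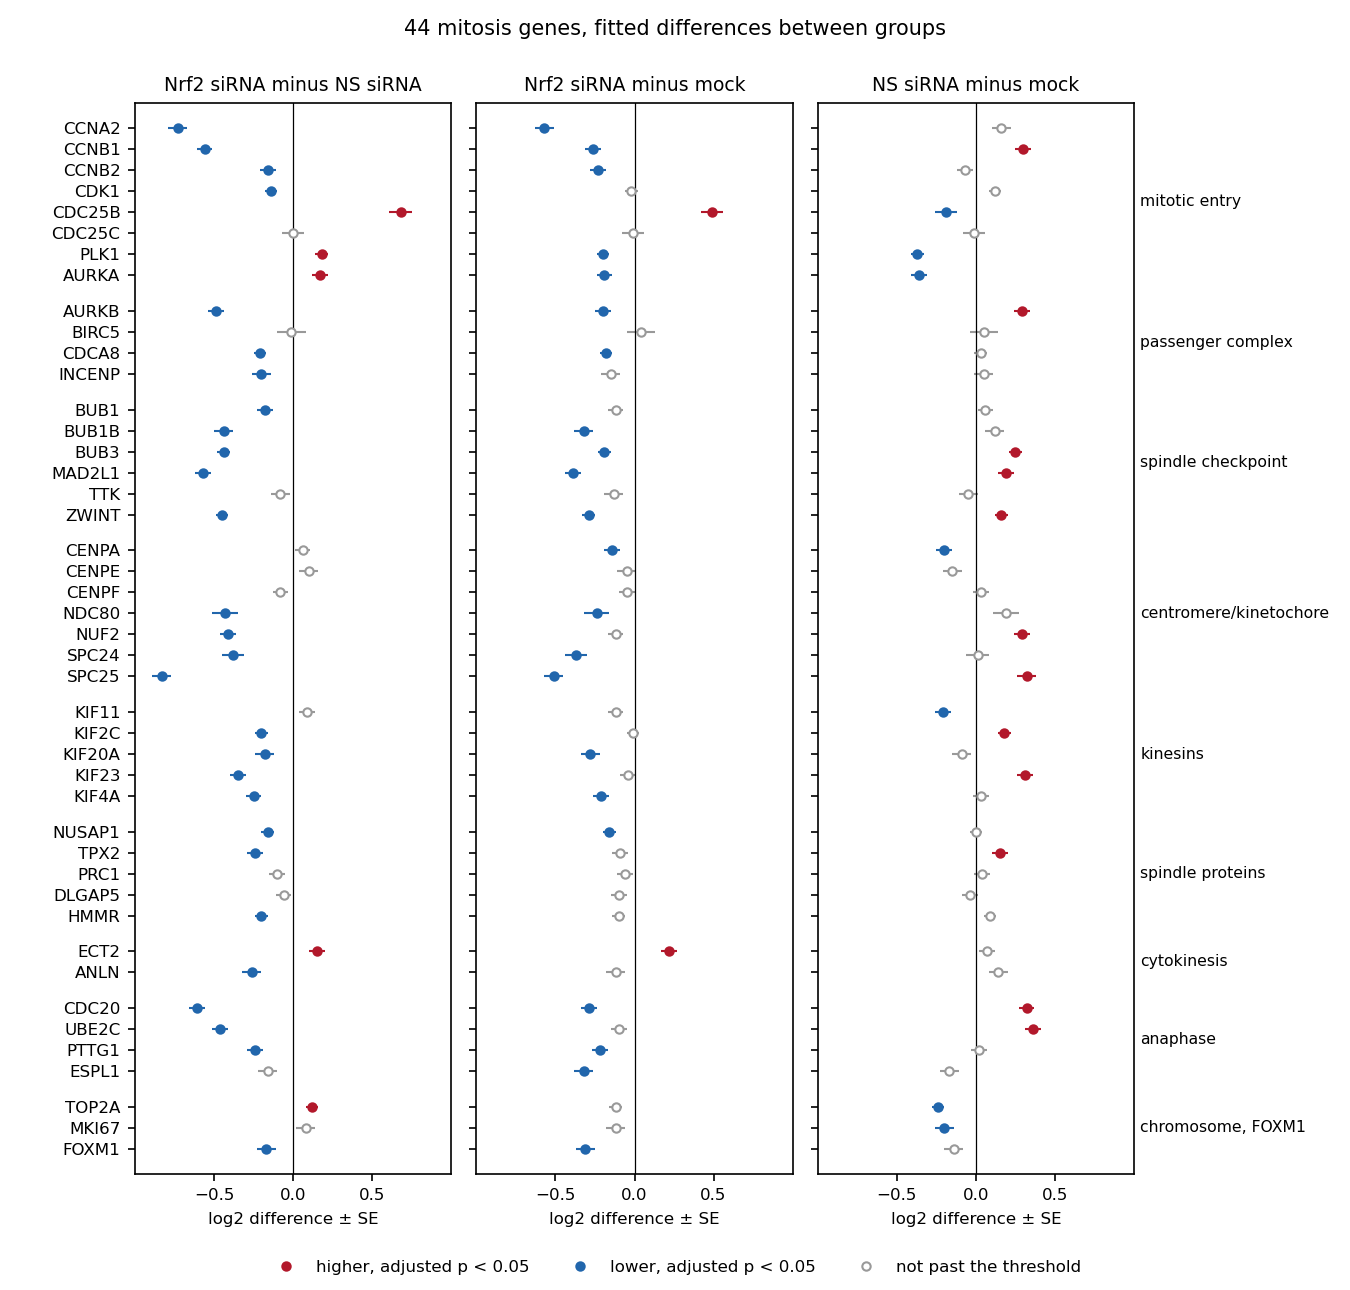
Log2 difference of each of the 44 mitosis genes for Nrf2 siRNA against each control and for NS siRNA against mock, with bars of 1 SE and filled points for genes past the threshold. Most points lie left of 0 in the comparisons of Nrf2 siRNA, from -0.83 for SPC25 to 0.68 for CDC25B against NS siRNA.

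NS siRNA alone also changed mitosis genes relative to mock, which bears on how each control reads. Of the 44 genes 7 fell (15.9%), where 15.2% of all genes did, and 12 rose (27.3%), where 15.6% of all genes did. Among the 13139 genes above the median level 23.2% fell and 22.7% rose, and in a fit of those genes alone the mitosis genes gave 9 falls and 13 rises, so that their falls lay near the share of other bright genes and their rises somewhat above it. Quantile normalization of the arrays gave 18 rises in place of 12. The median log2 difference was 0.04, beside 0.03 over all genes, and ran between 0.021 without mock replicate 3 and 0.062 without mock replicate 2. The largest change, of PLK1, was 1.29-fold, while 3.77% of all genes were called at 1.5-fold or more. The rises included UBE2C (0.36 ± 0.05, adjusted p = 0.000139), CDC20 (0.32 ± 0.05, adjusted p = 0.000221), SPC25 (0.32 ± 0.06, adjusted p = 0.000646), KIF23 (0.31 ± 0.05, adjusted p = 0.000599), CCNB1 (given above), NUF2 (0.29 ± 0.05, adjusted p = 0.00111) and AURKB (0.29 ± 0.05, adjusted p = 0.000404). BUB3, KIF2C, MAD2L1, ZWINT and TPX2 also rose. The falls were PLK1 (-0.37 ± 0.04, adjusted p = 1.9e-05), AURKA (-0.36 ± 0.05, adjusted p = 0.000101), TOP2A (-0.24 ± 0.04, adjusted p = 0.00114), KIF11 (-0.21 ± 0.05, adjusted p = 0.00491), CENPA (-0.20 ± 0.05, adjusted p = 0.00407), MKI67 (-0.20 ± 0.06, adjusted p = 0.0135) and CDC25B (-0.19 ± 0.07, adjusted p = 0.0488). A gene higher in NS siRNA than in mock necessarily has a lower difference against NS siRNA than against mock, since the 3 comparisons share their arrays.

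Calls of NS siRNA against mock that rested on single arrays were those for CDC25B, MAD2L1, MKI67, TPX2 and ZWINT. CDC25B lost its call in 7 of the 9 fits that leave out 1 array, with adjusted p up to 0.199 without mock replicate 2. MAD2L1 lost it without mock replicate 1 (0.18, adjusted p = 0.0618), on leaving out mock replicate 2 (0.18, adjusted p = 0.0569), on leaving out NS siRNA replicate 1 (0.18, adjusted p = 0.0583) or on leaving out NS siRNA replicate 3 (0.17, adjusted p = 0.0646). MKI67 lost it without mock replicate 1 (-0.19, adjusted p = 0.0523) or on leaving out mock replicate 2 (-0.16, adjusted p = 0.0622). TPX2 lost it without mock replicate 2 (0.15, adjusted p = 0.0621), on leaving out mock replicate 3 (0.12, adjusted p = 0.105) or on leaving out NS siRNA replicate 2 (0.13, adjusted p = 0.0998), and ZWINT lost it without mock replicate 2 (0.14, adjusted p = 0.0524) or on leaving out NS siRNA replicate 3 (0.14, adjusted p = 0.0503).

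Of the 44 genes 22 had 1 probe set and 22 had several, 86 probe sets in all, which allowed a check of each gene by other probes on the same RNA. In a fit over 41091 single-gene probe sets, 16 genes with several probe sets were called against NS siRNA, and for 14 of them all probe sets had the same sign. Of their 29 other probe sets 4 ran against the brightest. Against mock 8 of 11 genes had a single sign, and 6 of 19 other probe sets ran against the brightest. CCNA2 and MAD2L1 were lower on every probe set and against both controls, with -0.52 (adjusted p = 6.82e-06) against NS siRNA and -0.37 (adjusted p = 0.000215) against mock for the second CCNA2 probe set. The other MAD2L1 probe sets gave -0.47 and -0.49 against NS siRNA. ECT2 was higher on every probe set and against both controls. Its other probe sets gave 0.21 (adjusted p = 0.0149) and, on a dim one, 0.27 (adjusted p = 0.0318) against NS siRNA.

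CCNB1, CCNB2 and BUB3 did not give 1 answer. The second CCNB1 probe set read 11.05, 11.08 and 11.05 in Nrf2 siRNA cells, against 11.26, 11.17 and 11.21 in NS siRNA cells and 10.81, 10.82 and 10.87 in mock cells. It put Nrf2 siRNA below NS siRNA (-0.15 ± 0.05, adjusted p = 0.0162) but above mock (0.22 ± 0.05, adjusted p = 0.00255), so the direction of CCNB1 against mock depended on the probe set. Both other CCNB2 probe sets, dimmer than the median of all probe sets, rose against NS siRNA and mock. One of them read 7.83, 7.88 and 7.64 in Nrf2 siRNA cells, against 7.25, 7.25 and 7.13 in NS siRNA cells and 7.30, 7.22 and 7.33 in mock cells (0.57, adjusted p = 1.52e-05 against NS siRNA). Of the other BUB3 probe sets, bright ones gave 0.09 (adjusted p = 0.138), 0.08 (adjusted p = 0.201) and -0.13 (adjusted p = 0.0416) against NS siRNA. Those dimmer than the median of all probe sets gave -0.25 (adjusted p = 0.0281) and -0.26 (adjusted p = 0.00137). Against mock none of these other BUB3 probe sets was called, with 0.04, 0.03 and -0.06 on the bright ones and -0.10 and 0.03 on the dim ones. TOP2A had another probe set with a larger rise against NS siRNA (0.26, adjusted p = 0.000758) and a fall against mock (-0.19, adjusted p = 0.0102), and the brightest TOP2A probe set missed the threshold in this fit (adjusted p = 0.0546).

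**Figure D4:**
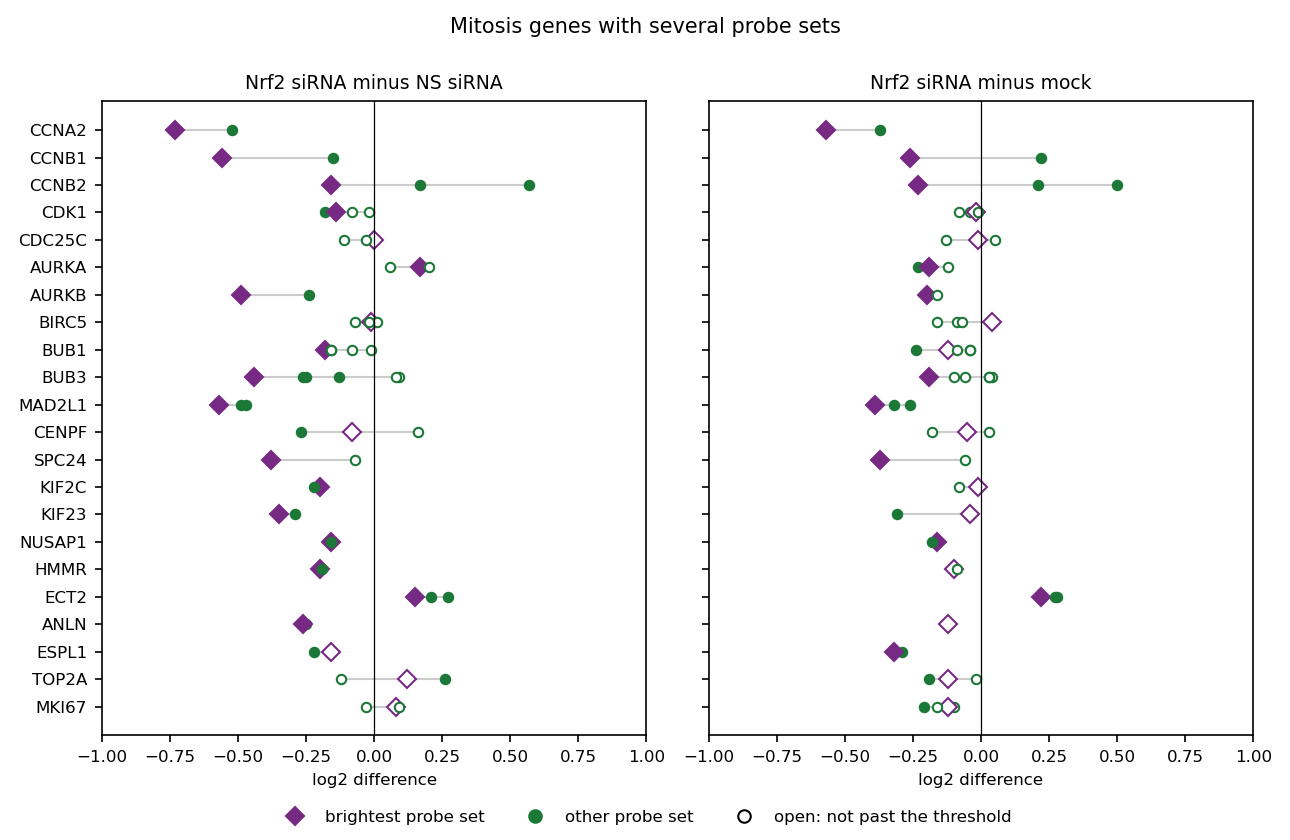
Log2 difference of Nrf2 siRNA against NS siRNA and against mock for every probe set of the mitosis genes with several probe sets, with filled symbols for those past an adjusted p of 0.05 over 41091 probe sets. The CCNA2 and MAD2L1 probe sets all lie below 0, while those of BUB3 and CCNB2 lie on both sides.

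Other genes of the same processes, in 6 lists that hold none of the 44, were counted in the same fit. Over 114 of 119 listed genes that were measured, 59 fell (51.8%) and 16 rose (14%) against NS siRNA, where 26.6% of all genes fell and 21.0% rose, with a median of -0.13. Against mock 52 fell (45.6%) and 11 rose (9.65%), where 16.7% of all genes fell and 16.4% rose, with a median of -0.12. The counts of single lists below are to be read beside those shares. In NS siRNA against mock, 18 fell (15.8%) and 31 rose (27.2%), where 15.2% of all genes fell and 15.6% rose. The falls there lay near the share of all genes. Among 14 further genes of mitotic entry 10 fell and 1 rose against NS siRNA, and 8 fell and 1 rose against mock. PBK, a mitotic kinase, fell against NS siRNA (-0.80 ± 0.04, adjusted p = 1.53e-08) and mock (-0.43, adjusted p = 7.83e-06). WEE1, the kinase that inhibits CDK1, fell against NS siRNA (-0.59, adjusted p = 1.4e-06) and was at 0.01 (adjusted p = 0.914) against mock. MASTL, Greatwall, which keeps CDK1 substrates phosphorylated, rose against NS siRNA (0.54, adjusted p = 5.56e-07) and fell against mock (-0.21, adjusted p = 0.00301).

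Of 28 further kinetochore and centromere genes 13 fell (46.4%) and 6 rose (21.4%) against NS siRNA, the rises near the 21.0% of all genes, and 15 fell and 1 rose against mock. HJURP, the chaperone that loads CENPA at centromeres, had a larger fall than any of the 44, with log2 differences of -1.25 ± 0.05 (adjusted p = 3.5e-10) against NS siRNA and -1.08 (adjusted p = 2.68e-09) against mock, below all 6 controls. CENPH, a subunit of the inner kinetochore, fell against NS siRNA (-0.73, adjusted p = 3.65e-08) and mock (-0.49, adjusted p = 2.8e-06). CENPO, of the same inner network, rose against NS siRNA (0.64, adjusted p = 4.37e-07) and missed the threshold against mock (-0.12, adjusted p = 0.0907). Of 17 genes of condensin and cohesin 7 fell and 3 rose against NS siRNA, with CDCA5, sororin, at -0.36, STAG2, a cohesin subunit, at 0.33 and SMC4, a condensin subunit, at 0.34, all past the threshold. Against mock 8 fell and 2 rose. CDCA5 stood there at -0.22 (adjusted p = 0.00219) and STAG2 at 0.17 (adjusted p = 0.00999), while SMC4 was at 0.03 (adjusted p = 0.661). SMC4 was lower in NS siRNA than in mock (-0.31, adjusted p = 0.000224).

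Of 16 genes of the anaphase-promoting complex and its partners 8 fell and 1 rose against NS siRNA. ANAPC15 (-0.70, adjusted p = 3.55e-08), ANAPC10 (-0.64, adjusted p = 1.25e-06) and ANAPC13 (-0.57, adjusted p = 1.53e-07), subunits of the complex, fell against NS siRNA. Against mock ANAPC15 stood at -0.57 and ANAPC13 at -0.25, both called, and ANAPC10 at 0.07 (adjusted p = 0.384). Of 21 further spindle genes 12 fell and 2 rose against NS siRNA, and 7 fell and 3 rose against mock. NUMA1, which anchors spindle poles, and KIF18A, a kinesin that damps chromosome movement, rose against NS siRNA (0.55 and 0.44) and mock (0.20 and 0.16). CEP55, which is needed for the final cut between daughter cells, fell against NS siRNA (-0.49) and missed the threshold against mock (-0.14, adjusted p = 0.0577).

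Of 18 regulators of late cell cycle transcription, the E2F, DREAM and MuvB genes, 9 fell and 3 rose (16.7%) against NS siRNA, and 7 fell and 4 rose (22.2%) against mock, with rises on either side of the shares of all genes (21.0% and 16.4%). MYBL2, which encodes B-MYB, fell against NS siRNA (-0.49 ± 0.06, adjusted p = 1.19e-05) and mock (-0.56, adjusted p = 7.42e-06) and was at -0.07 (adjusted p = 0.429) in NS siRNA against mock. LIN9, a subunit of MuvB, fell against NS siRNA (-0.63 ± 0.07, adjusted p = 1.1e-05) and mock (-0.39) on a dim probe set, with group means of 7.20 in Nrf2 siRNA, 7.82 in NS siRNA and 7.58 in mock, near the median of all probe sets. E2F8, a repressor of the E2F family, fell against NS siRNA (-0.49, adjusted p = 1.78e-06) and mock (-0.24). For MYBL2, LIN9 and E2F8 all Nrf2 siRNA arrays lay below all 6 controls.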

How the data were processed

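Total RNA of A549 cells in 3 groups of 3 biological replicates was read on 9 Affymetrix arrays, per the labels. The authors deposited log2 levels from RMA, as the submitters' processing notes name it (its version is not given in the sources used). Scanner files, scan dates and detection calls were not used here, so batches could not be examined. Of 54675 probe sets, 62 were controls, 41091 carried 1 gene, 1801 several and 11721 none in the annotation table for the array; symbols were updated through Entrez identifiers for 41037. The brightest probe set by its mean over 9 arrays stood for each of 19775 genes.

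The log2 values were fitted by lmFit and eBayes of limma 3.58.1 (R 4.3.3) as 3 group means with 6 residual degrees of freedom and a prior of 6.12. P-values are two-sided, adjusted by Benjamini-Hochberg over 19775 genes, with a threshold of 0.05. Nothing in the labels ties equal replicate numbers to a shared culture or day, and same-numbered arrays did not all deviate together, so no block was used.

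The mitosis genes and all lists were chosen with earlier results of these data known, so no test over a list was made. Array values were given for NFE2L2, the cycling markers, the 10 members with the largest difference against NS siRNA that share its sign against mock, and the members higher against NS siRNA, and for KIF23, UBE2C, MKI67 and FOXM1 after their values were seen. From each further list up to 3 genes, those of smallest adjusted p against NS siRNA, were named. Promoters were printed for the markers and 3 large members that hold TTTGAA or TTCGAA. Alternatives covered scaling, filtering, probe set choice, fit, block, threshold and each array left out. Figures were drawn with matplotlib 3.10.9.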

Additional observations from a re-analysis of the deposited data

How the results depend on the processing

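Each array was left out in turn, and scaling, filters, probe set choice, fit, replicate block and threshold were changed one at a time. Leaving out 1 array kept the mitosis genes lower against NS siRNA at 24 to 28 and those lower against mock at 19 to 25, and the medians at -0.226 to -0.151 and -0.171 to -0.121. For NS siRNA against mock it gave 5 to 9 lower, 10 to 13 higher and medians of 0.021 to 0.062, and quantile normalization gave 18 higher. Quantile normalization also gave 31 lower against NS siRNA and 27 lower against mock. Equal array medians gave 25 and 22 lower in those comparisons, and an adjusted p of 0.01 gave 21 and 19. The genes higher against NS siRNA, 5 as reported, were 3 to 6 with 1 array left out, 3 in a fit of the compared groups alone and 2 at an adjusted p of 0.01. The median against NS siRNA moved most without Nrf2 siRNA replicate 1, to -0.151.

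The choice of probe set reversed signs. CCNB2 turned to 0.19 against NS siRNA and 0.16 against mock with the mean of its probe sets, and to 0.57 and 0.50 with the probe set of largest interquartile range, while its dim probe sets alone gave 0.17 and 0.57 against NS siRNA and 0.21 and 0.50 against mock. CCNB1 turned to 0.22 against mock on its other probe set. BUB3 turned to 0.09 and 0.08 against NS siRNA, to 0.04, 0.03 and 0.03 against mock, and to -0.05 and -0.05 for NS siRNA against mock. Single probe sets also gave -0.12 for TOP2A against NS siRNA, and 0.10 for TOP2A and -0.02 for KIF23 in NS siRNA against mock. The cause was not tested. With the mean of probe sets BUB3 and CCNB1 were not called against mock (-0.04, adjusted p = 0.444, and -0.02, adjusted p = 0.767). With equal array medians the calls of CDK1, FOXM1 and KIF20A against NS siRNA were lost (adjusted p = 0.0683, 0.0651 and 0.0544). The call of BUB1 against NS siRNA was lost with the probe set of largest interquartile range, that of KIF23 for NS siRNA against mock with the mean of probe sets (0.14, adjusted p = 0.111), and those of ECT2 and TOP2A against NS siRNA in a fit of the compared groups alone (adjusted p = 0.0516 and 0.0651). A sign change was counted as reversed where the reported value was called, whether or not the other value was. The reversed single probe sets of BUB3, TOP2A and KIF23 did not themselves pass the threshold.

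With the replicate number as a block, 28 mitosis genes were lower and 5 higher against NS siRNA, 22 lower and 2 higher against mock, and 7 lower and 14 higher for NS siRNA against mock. Deviations of same-numbered arrays correlated between -0.2084 and 0.2305, and those of differently numbered arrays between -0.3421 and 0.2001. The ranges overlap and do not decide whether equal numbers mark a shared culture or day. With 3 arrays a group and no detection calls, small changes and dim probe sets are the least certain.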
